A study of Rattus rattus with 24 samples.

Results

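Hr, Stard13, Fgl2, Dct and Kctd14 are genes whose expression stood far higher with T3 than without it in cultures of rat oligodendrocyte precursor cells (OPCs). They were chosen by large rises with T3 over control or over quetiapine on these same arrays, with no numerical threshold. They are 5 of the 14217 genes that the annotation of the array names by 1 symbol, and 8 of its 20826 probe sets with a single symbol. Fgl2 has 4 probe sets and each of the other genes has 1. OPCs were isolated from the cortices of rat pups by binding to A2B5 microbeads and expanded in PDGF, and were then kept with vehicle (control), 45 nM T3, 1 µM quetiapine or both compounds (combination). RNA was taken after 48 or 96 hours. Each of the 8 groups had 3 replicates, 24 arrays in all, and per the design text every condition was sampled in each of 3 biological replicates. The labels do not state what set the replicates apart (animals, isolation or day). The culture medium of the study held the B27 supplement, which itself contains a little T3, so the control cultures were low in added hormone and not free of it. All values are log2 expression, on which a difference of 1 is a doubling, and levels of different genes are not compared with each other.

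T3 is the active thyroid hormone. It enters the nucleus and binds the receptors made by Thra and Thrb, which sit on the regulatory DNA of their target genes, hold them down together with corepressors when empty, and release those corepressors when the hormone arrives. In the oligodendrocyte lineage T3 is a long-known signal for precursors to leave the cell cycle and mature. Quetiapine is an antipsychotic drug that blocks dopamine and serotonin receptors. The 5 genes have no common pathway: Hr makes a corepressor, Stard13 a protein with a START domain, Kctd14 a protein with a BTB domain, Dct an enzyme of melanin synthesis and Fgl2 a fibrinogen-like protein. Hr is itself a known target of the hormone in the developing brain, so the group is not made only of genes without a known link to T3.

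The medians of the arrays ran from 6.43 to 6.51, and arrays of 1 group correlated at 0.986 or more over all probe sets. The cultures carried the markers of the lineage, with Pdgfra between 11.21 and 12.70 and Olig1 between 13.00 and 13.47 over the 24 arrays. Gfap, the main astrocyte filament gene, lay between 12.65 and 13.77, so the cultures were not made of OPCs alone. In such bulk RNA, more cells of a type and more RNA in each cell cannot be told apart. Of the microglial genes, Cx3cr1 and Aif1 lay between 5.91 and 6.56 and Csf1r between 4.29 and 6.55, and the mean of the 18 on the list ran from 5.06 to 6.51.

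The contrasts of T3 with control and with quetiapine chose the genes and are given as values and ranks without a test. The combination arrays took no part in the choice, so the tests below are those that set the combination against the other groups, together with quetiapine against control. The control, quetiapine and T3 arrays in these tests did take part, and choosing genes with low control or quetiapine values and high T3 values favours a combination above control and quetiapine and below T3. In quetiapine against control both groups took part. A choice on low control values favours a rise there, and a choice on low quetiapine values a fall. A probe set passed at a limma adjusted p under 0.05. Against control, 2 of the 8 probe sets were higher in the combination at 48 hours, against 2.62% of all 31042 probe sets tested, and all 8 were higher at 96 hours, against 13.6%. Against quetiapine, 2 were higher at 48 hours (all probe sets, 0.718%) and all 8 at 96 hours (3.62%). Of the 8, 0 differed between the combination and T3 in either direction at 48 hours (all probe sets, 0.0193%) or at 96 hours (1.91%). At an unadjusted p under 0.05 the counts for this comparison were 0 at 48 hours and 1 at 96 hours, Kctd14. Quetiapine alone changed 0 of the 8 at 48 hours (0.116% of all in either direction), where 1, Hr, had an unadjusted p under 0.05, and raised 2 at 96 hours (3.65%).

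A term for the replicate number, shared by the arrays of all treatments, changed several of these counts. With it, 6 of the 8 were higher in the combination than in control at 48 hours (all probe sets, 9.63%) and 5 were higher than in quetiapine (3.73%). The probe set of Dct was then lower in the combination than in T3 at 48 hours (0.635%) and at 96 hours (6.57%), and lower in quetiapine than in control at 48 hours (1.88%). The plot of tested differences shows how far the width of the intervals differed between the genes.

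**Figure D1:**
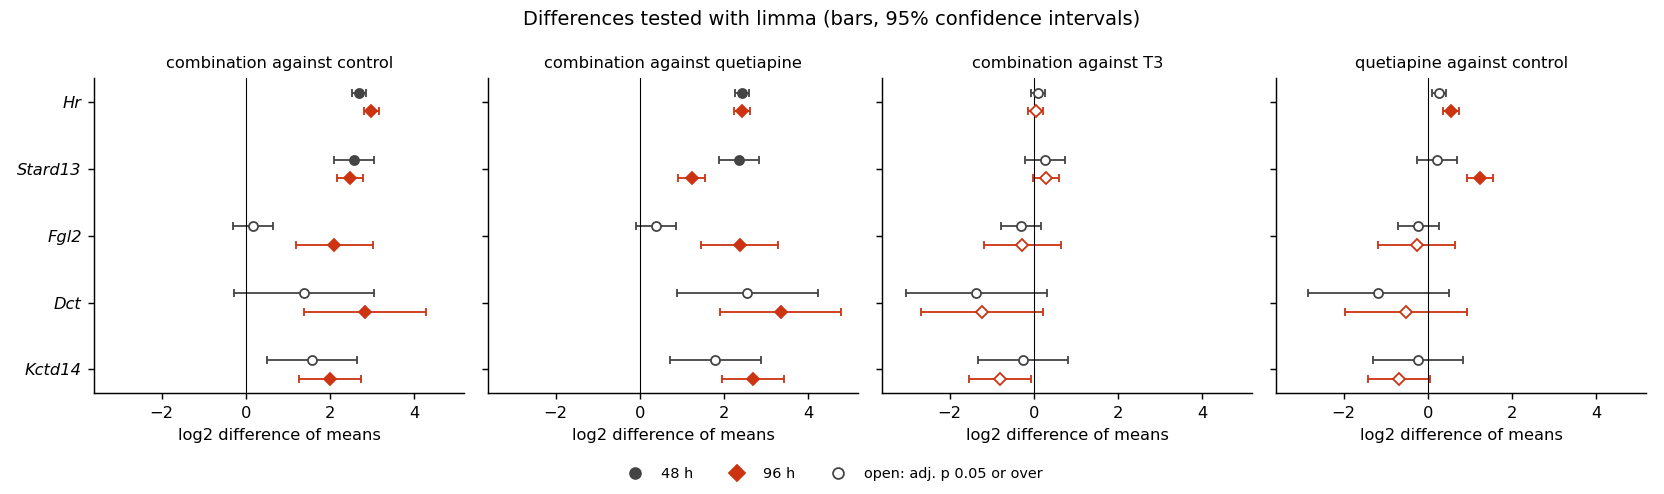
Log2 difference of the group means (x axis) for the highest-mean probe set of each gene in the 4 tested comparisons, at 48 hours (grey circles) and 96 hours (red diamonds), with 95% confidence intervals from the limma fit without a term for the replicate; filled symbols passed an adjusted p of 0.05. Intervals are narrow for Hr and Stard13 and wide for Dct, and no symbol is filled in the comparison of the combination with T3.

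**Figure D2:**
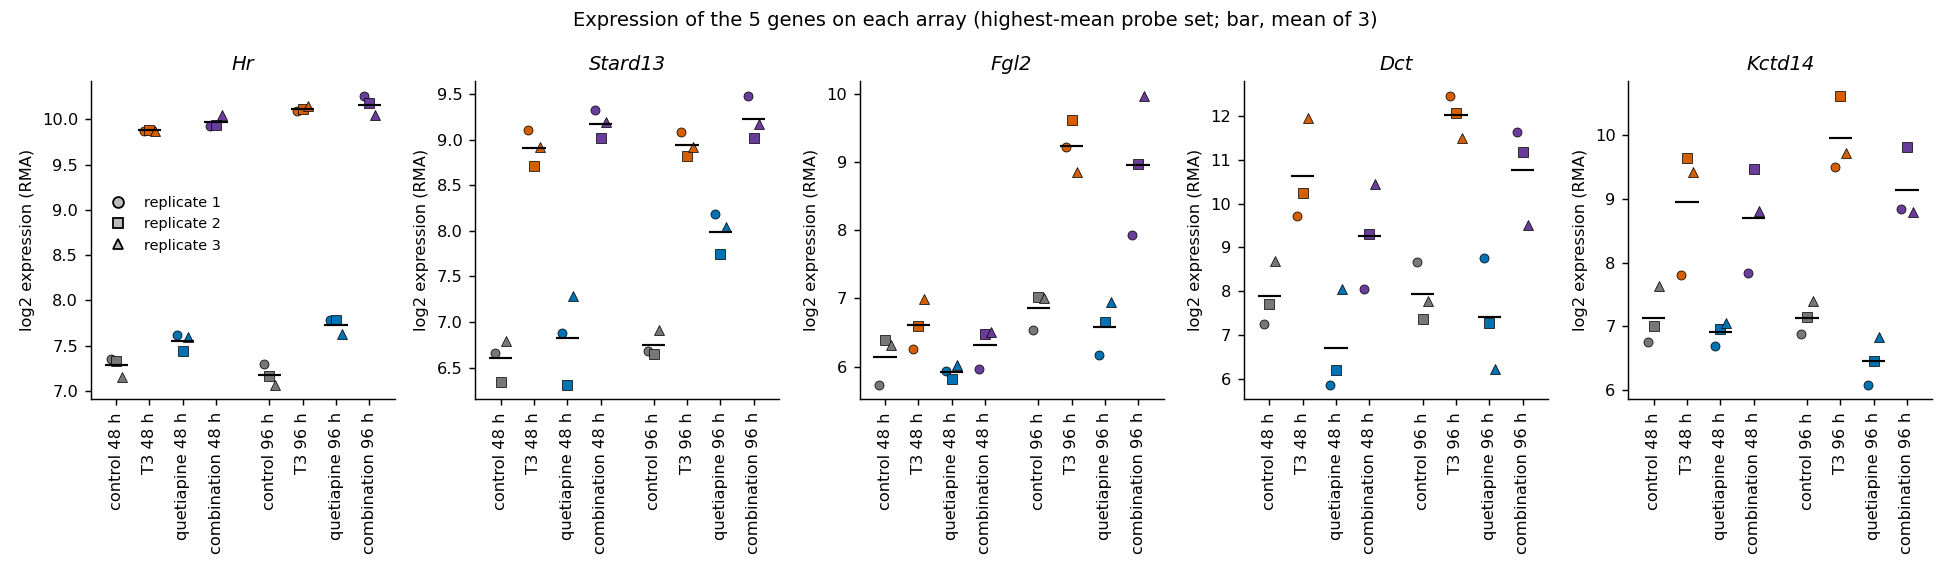
Log2 expression (y axis, a separate scale for each gene) of the highest-mean probe set of each gene on each of the 24 arrays, by treatment and time (x axis); symbols mark the replicate number and bars the mean of 3. Hr and Stard13 were high with T3 at both times, whereas Fgl2 was high only on the T3 and combination arrays of 96 hours.

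Hr (1369336_at) makes a nuclear protein that binds thyroid hormone receptors and recruits histone deacetylases. At 48 hours its 3 control arrays read 7.36, 7.34 and 7.15 and its 3 T3 arrays 9.87, 9.89 and 9.88. The quetiapine arrays read 7.61, 7.44 and 7.59 and the combination arrays 9.93, 9.94 and 10.05. At 96 hours control was at 7.30, 7.17 and 7.06, T3 at 10.09, 10.12 and 10.15, quetiapine at 7.78, 7.78 and 7.63 and the combination at 10.26, 10.18 and 10.05. The arrays with T3 and those without it were therefore separated by a wide gap at both times, and the replicates barely differed. T3 exceeded control by 2.60 at 48 hours (a 6.05-fold difference, rank 14 of 31042 from the largest rise) and by 2.94 at 96 hours (7.69-fold, rank 36).

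The combination exceeded control in Hr by 2.69 ± 0.08 (SE, n = 3 per group) at 48 hours, with a limma adjusted p of 3.9e-08, and by 2.99 ± 0.08 at 96 hours (adjusted p = 1.06e-08). Between the combination and T3 the difference was 0.09 at 48 hours, with a 95% interval from -0.07 to 0.26, and 0.04 at 96 hours, from -0.14 to 0.23. Quetiapine alone raised Hr by 0.55 ± 0.08 at 96 hours, a 1.47-fold difference that was present in all 3 replicates (limma adjusted p = 0.00361). At 48 hours the same difference was 0.27 and did not pass (adjusted p = 0.344). Set against quetiapine, the combination stood 2.42 higher at 48 hours and 2.43 higher at 96 hours. The T3 effect in the presence of quetiapine was thus 0.51 smaller than without it at 96 hours, in all 3 replicates (-0.67 to -0.31), which is a description because it contains the contrast that chose the gene.

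Stard13 (1391871_at) makes a protein with a START domain, a fold that binds lipids. At 48 hours control read 6.66, 6.35 and 6.79, T3 9.11, 8.71 and 8.92, quetiapine 6.88, 6.31 and 7.28, and the combination 9.32, 9.02 and 9.19. At 96 hours control read 6.69, 6.65 and 6.91, T3 9.08, 8.82 and 8.92, quetiapine 8.19, 7.75 and 8.05, and the combination 9.49, 9.02 and 9.18. Quetiapine therefore overlapped control at 48 hours but occupied a level of its own at 96 hours, between control and T3. T3 exceeded control by 2.31 at 48 hours (rank 19) and 2.19 at 96 hours (rank 105), so the T3 level was already reached at the first time.

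Quetiapine alone raised Stard13 2.37-fold at 96 hours, by 1.24 ± 0.14 (SE, n = 3 per group, limma adjusted p = 7.19e-04), and by 0.22 at 48 hours, which did not pass (adjusted p = 0.867, 95% interval -0.25 to 0.70). A choice of the gene on low control values favours this rise, as it does that of Hr. The change with time of the difference between quetiapine and control was 1.02 ± 0.27. It did not pass without a term for the replicate (adjusted p = 0.214) and passed with it (0.00693, a call made for 0.97% of all probe sets). The combination exceeded control by 2.58 at 48 hours and 2.48 at 96 hours (adjusted p = 1.46e-04 and 1.24e-06). It exceeded quetiapine by 2.35 at 48 hours but by 1.23 at 96 hours (adjusted p = 3.21e-04 and 8.78e-04), and this fall of 1.12 with time passed only with the term for the replicate (adjusted p = 0.225 without it and 0.00757 with it, a call made for 0.184% of all probe sets). Between the combination and T3 the interval ran from -0.21 to 0.74 at 48 hours and from -0.03 to 0.60 at 96 hours. The rises over control with each compound alone at 96 hours, 2.19 and 1.24, add up to more than the 2.48 of the combination, and the shortfall, described without a test, was 0.96, between 0.87 and 1.09 in each replicate.

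Kctd14 (1395966_at) belongs to a family with a BTB domain like that by which potassium channels assemble, and its own role is little described. Control read 6.76, 7.01 and 7.63 at 48 hours, T3 7.81, 9.63 and 9.42, quetiapine 6.69, 6.96 and 7.06, and the combination 7.83, 9.47 and 8.81. In replicate 1 the 2 treatments with T3 were much lower than in the other replicates, and T3 exceeded control by 1.05 there and by up to 2.62 in the others. At 96 hours control read 6.87, 7.14 and 7.39, T3 9.50, 10.62 and 9.72, quetiapine 6.08, 6.46 and 6.83, and the combination 8.83, 9.81 and 8.79. By then no array with T3 came near an array without it, and all quetiapine arrays lay below all control arrays. T3 exceeded control by 1.82 at 48 hours and by 2.81 at 96 hours, at rank 44 both times.

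In Kctd14 the combination exceeded control by 2.01 ± 0.33 (SE, n = 3 per group) at 96 hours (limma adjusted p = 0.00108) and quetiapine by 2.69 (adjusted p = 0.00127). At 48 hours the difference from control was 1.57 ± 0.49, which did not pass (adjusted p = 0.0901) and passed with the term for the replicate (0.00357). Leaving out T3 replicate 1 or combination replicate 1 at 48 hours also brought it past the limit, the lowest adjusted p being 0.0367. The difference from quetiapine at 48 hours, 1.80, behaved alike (adjusted p = 0.158 without the term and 0.00429 with it). The combination was lower than T3 by 0.66 to 0.94 in all 3 replicates at 96 hours, a mean of -0.80 that did not pass (adjusted p = 0.257, and 0.0601 with the term). Quetiapine was lower than control by 0.56 to 0.80 in all 3 at that time, a mean of -0.68 that did not pass either (adjusted p = 0.287 and 0.0859).

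Dct (1383394_at) makes dopachrome tautomerase, which acts after tyrosinase in the synthesis of melanin and is best known from melanocytes. Control read 7.26, 7.71 and 8.68 at 48 hours and T3 9.71, 10.25 and 11.94. Quetiapine read 5.87, 6.21 and 8.05 and the combination 8.05, 9.31 and 10.45. The replicates differed by more than a whole log2 unit within every treatment, and replicate 3 was the highest in all 4. At 96 hours control read 8.67, 7.37 and 7.78, T3 12.46, 12.06 and 11.49, quetiapine 8.77, 7.28 and 6.22, and the combination 11.62, 11.19 and 9.52. Replicate 1 was now the highest in all 4 treatments, and every array with T3 lay above every array without it. T3 exceeded control by 2.75 at 48 hours (rank 10) and by 4.06 at 96 hours, a 16.7-fold difference (rank 4). Its excess over quetiapine, 3.92 and 4.58, ranked 3 and 1 of all probe sets.

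At 96 hours the combination exceeded control in Dct by 2.83 ± 0.66 (SE, n = 3 per group, limma adjusted p = 0.0075) and quetiapine by 3.35 ± 0.66 (adjusted p = 0.0129). The second of these did not pass without quetiapine replicate 2, quetiapine replicate 3 or combination replicate 2, where the adjusted p rose as far as 0.0616. At 48 hours the differences were 1.38 and 2.56, and neither passed (adjusted p = 0.341 and 0.212). With the term for the replicate both did (7.39e-04 and 3.74e-05). Beside T3 alone, the combination was lower by 1.37 at 48 hours and by 1.23 at 96 hours, in all 3 replicates both times. Neither fall passed without the term (adjusted p = 0.997 and 0.389), and both passed with it (0.0114 and 0.0458). Quetiapine beside control showed a fall of 1.18 at 48 hours, again in all 3 replicates (adjusted p = 0.796, and 0.0127 with the term), while at 96 hours the difference was -0.52, with 1 replicate higher (adjusted p = 0.732 and 0.363). The selection of the gene on its T3 arrays and on its excess over quetiapine favours these falls. The T3 effect at 96 hours with quetiapine minus that without it was -0.71 in Dct, negative in all 3 replicates (-0.93 to -0.42). In Kctd14 it was -0.12 (-0.37 to 0.13), and neither was tested.

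**Figure D3:**
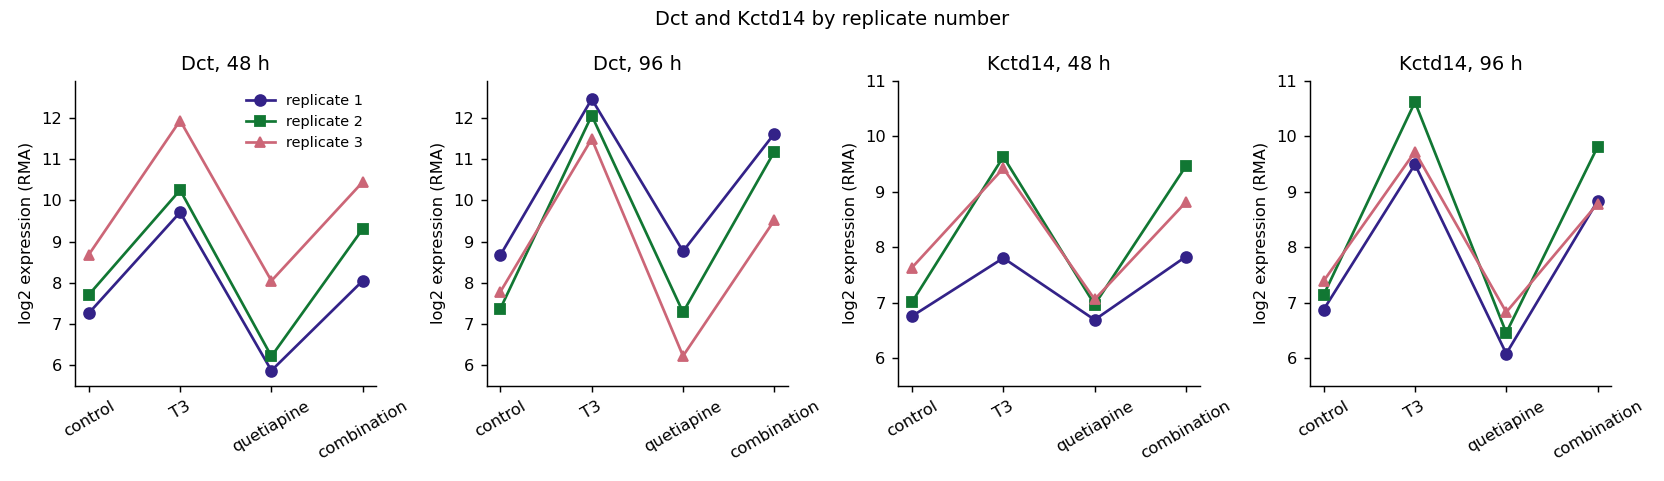
Log2 expression (y axis) of Dct and Kctd14 under each treatment (x axis) at 48 and 96 hours, with 1 line for each replicate number. The lines mostly keep their order from treatment to treatment, and in Dct replicate 3 is the highest line at 48 hours and the lowest at 96 hours in all treatments except control.

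Fgl2 makes a fibrinogen-like protein that is found both as a membrane enzyme that cleaves prothrombin and as a secreted immune regulator. Its brightest probe set (1392894_at) read 5.73, 6.39 and 6.32 in control at 48 hours, 6.26, 6.59 and 6.99 with T3, 5.93, 5.82 and 6.02 with quetiapine, and 5.96, 6.47 and 6.51 with the combination. These 4 groups lay close together, and T3 overlapped control. At 96 hours control read 6.54, 7.02 and 7.00, T3 9.22, 9.62 and 8.86, quetiapine 6.17, 6.65 and 6.94, and the combination 7.93, 8.97 and 9.98. All 6 arrays with T3 were now above all 6 without it, and the combination spread over more than 2 log2 units. T3 exceeded control by 0.47 at 48 hours (rank 761) and by 2.38 at 96 hours (rank 85).

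In the other 3 probe sets of Fgl2, too, all 6 arrays with T3 at 96 hours lay above the other 18, while the order of the lower groups and of T3 and the combination differed between probe sets. The probe set with the lowest mean signal, 1383516_at, went from 3.49, 3.99 and 3.67 in control to 6.96, 7.57 and 7.06 with T3 and 5.72, 7.09 and 8.03 with the combination at 96 hours, and at 48 hours its 12 arrays lay between 3.15 and 3.85. Its T3 excess was 0.27 at 48 hours and 3.48, or 11.2-fold, at 96 hours (rank 14). For 1386637_at the T3 excess was 0.34 and 2.01, and for 1370623_at it was 0.26 and 0.99. The small excess at 48 hours was present in all 3 pairs of same-numbered arrays in every probe set but 1370623_at (2 of 3), and in 1386637_at the T3 and control arrays did not overlap. Over the 24 arrays the 4 probe sets correlated pairwise at 0.934 to 0.983, a description of 1 transcript on shared arrays.

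**Figure D4:**
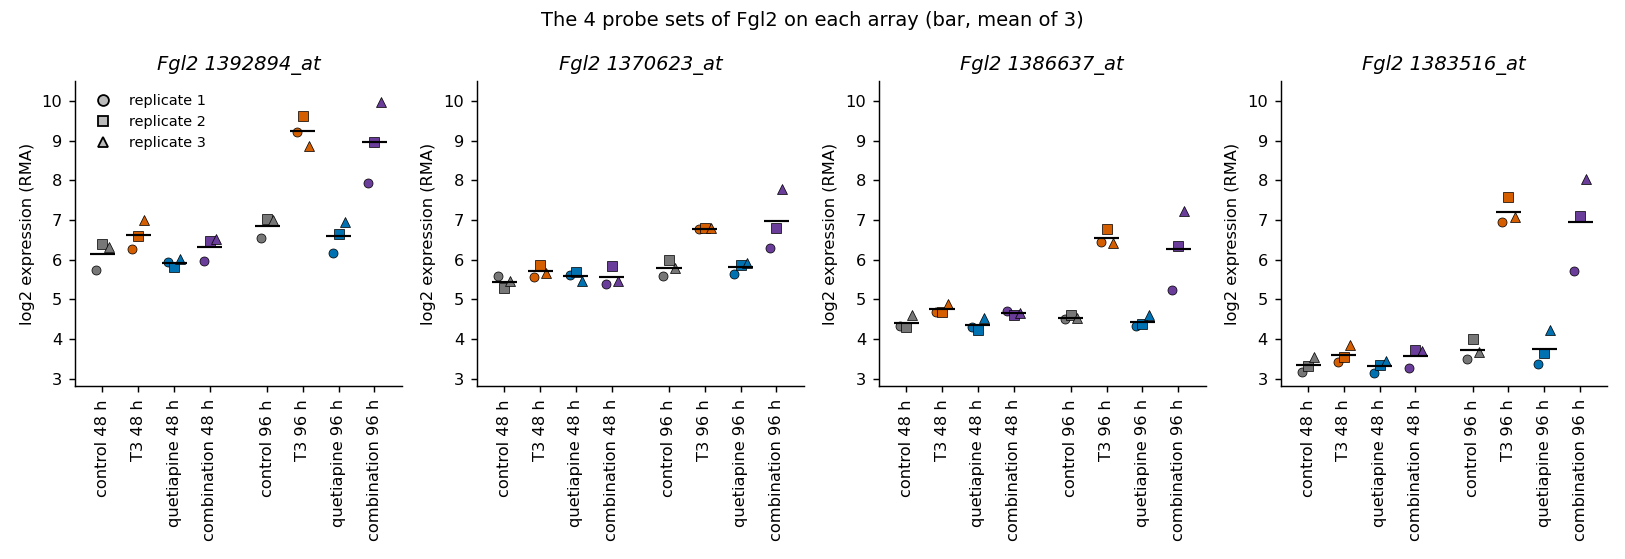
Log2 expression (y axis, 1 scale for all) of the 4 Fgl2 probe sets on the 24 arrays by treatment and time (x axis), with symbols for the replicate number and bars for the mean of 3. In each panel the T3 and combination arrays of 96 hours stand above all other arrays, and of the combination arrays of 96 hours replicate 1 is the lowest and replicate 3 the highest.

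Fgl2 was the gene whose combination arrays rose with time in the test without a replicate term. From 48 to 96 hours they rose by 2.65 ± 0.36 in 1392894_at (SE, n = 3 per group, limma adjusted p = 3.69e-05), by 3.38 ± 0.37 in 1383516_at (adjusted p = 4.31e-06), by 1.61 in 1386637_at and by 1.40 in 1370623_at. These 4 of the 8 probe sets rose with time in the combination, against 9.66% of all. All 4 measure 1 gene on the same arrays, so they are not separate results. With a term for the replicate Hr joined them (13.2% of all), its rise of 0.19 moving from an adjusted p of 0.0834 to 0.0494. Stard13, Dct and Kctd14 differed between the times by 0.05, 1.51 and 0.44 and did not pass (adjusted p = 0.898, 0.179 and 0.554). For Dct the replicates turned their order between the times, and SE was 0.76.

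At 96 hours the combination exceeded control in all 4 Fgl2 probe sets, by 2.11 ± 0.42 in 1392894_at (SE, n = 3 per group, limma adjusted p = 0.00312) and by 3.23 ± 0.46 in 1383516_at (adjusted p = 4.02e-04). At 48 hours the same differences were 0.17 and 0.22, and 0 of the 4 passed (adjusted p between 0.208 and 0.726). With the term for the replicate 2 did, 1386637_at with a difference of 0.25 (adjusted p = 0.0290) and 1383516_at with 0.22 (adjusted p = 0.0494), and 1386637_at also exceeded quetiapine, by 0.30 (adjusted p = 0.0250). The growth of the difference between the times passed for 3 of the 4, 1.94 in 1392894_at, 1.48 in 1386637_at and 3.01 in 1383516_at (adjusted p = 0.0254, 0.0329 and 0.00196), against 4.15% of all probe sets. Measured from quetiapine the growth was 2.95 in 1383516_at (adjusted p = 0.0346), the only one of the 8 that passed, against 0.0612% of all. Between the combination and T3 at 96 hours the difference in 1392894_at was -0.27, with an interval from -1.19 to 0.65 and replicates on both sides of 0. Quetiapine alone differed from control by -0.22 at 48 hours and -0.27 at 96 hours in this probe set, neither of which passed.

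Read over the 8 groups, the order of levels also set the genes apart. In Hr and Stard13 the 4 groups with T3 held the top 4 places. In Stard13 neighbouring groups among those 4 overlapped throughout, whereas in Hr only the T3 and combination arrays of 96 hours did. Kctd14 and Dct also had the 4 groups with T3 on top, with quetiapine at the bottom. In Dct every pair of neighbouring groups in the order overlapped, including control at 96 hours and the combination at 48 hours. In Fgl2 (1392894_at) only the 2 groups with T3 at 96 hours stood clear of the next. Across the 24 arrays the closest pair was Hr and Stard13 (Pearson r = 0.941), followed by Kctd14 with Hr and with Dct (both 0.859), and the most distant was Stard13 and Fgl2 (0.520). All 5 share the T3 contrast by choice, so these correlations describe the group and test nothing.

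For each of the 5, the genes whose pattern over the 24 arrays was most like it were found by Pearson r. For Hr they were Col11a2 (r = 0.992), a collagen chain, and Nt5e (0.975), the ecto-enzyme that makes adenosine from AMP, followed by Sned1, Timm8a1 and Focad. For Stard13 they were Shroom2 (0.951), an actin-binding protein, and Tesk2 (0.948), a kinase of the actin regulator cofilin, with Hr, itself one of the 5, next (0.941), then Tp53inp2 and Dcun1d4. Tesk2, like Stard13, had a quetiapine difference that was -0.01 at 48 hours and 1.06 at 96 hours. For Kctd14 they were Mamdc2 (0.953), Btk (0.950), a tyrosine kinase, Aldh1a1 (0.936), which makes retinoic acid from retinal, Rgs6 and Tspan4. For Dct they were Nid2 (0.920), a basement membrane protein, Hadh, Tbc1d22al, Cgrrf1 and Slc12a7 (0.888), a potassium-chloride cotransporter that T3 raised by 3.53 at 48 hours and 3.66 at 96 hours. For Fgl2 they were Sgca (0.936), a sarcoglycan, Adm (0.932), the vasodilator peptide adrenomedullin, Il6st, Atp1b3 and Cp. Sgca and Adm were late as well, with T3 differences of 0.46 and 0.43 at 48 hours and of 2.31 and 1.76 at 96 hours. Those of Il6st, Atp1b3 and Cp grew less, from 0.50, 0.24 and 0.23 to 0.79, 0.85 and 0.61.

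Genes known to respond to T3 give the setting for the 5. Of 23 measured genes of such a list, 8 rose with T3 over control at 48 hours and 0 fell, against 0.792% of all probe sets higher and 0.254% lower. At 96 hours 10 rose and 0 fell, against 5.64% and 6.07%. The median change of the list was 0.18 and 0.32, and that of all probe sets 0.00 and -0.01. Nt5e rose by 3.95 and 3.93, Aldh1a1 by 3.14 and 4.02, and Dio3, the deiodinase that inactivates T3, by 2.12 and 3.96 at the 2 times (limma adjusted p between 1.24e-07 and 0.0382). Thrsp, a lipogenic gene, rose by 3.02 at 96 hours. With the term for the replicate 11 rose and 2 fell at 48 hours and 12 rose and 2 fell at 96 hours.

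Partners and relatives of the 5 genes were counted in the same test of T3 against control. Of all probe sets, 0.792% were higher and 0.254% lower at 48 hours, and 5.64% and 6.07% at 96 hours. With the term for the replicate these shares were 4.57% and 5.51% at 48 hours and 10.3% and 14.3% at 96 hours. They are the measure for the counts of each list that follows. Among 16 nuclear receptors and corepressors tied to Hr, 1 rose and 0 fell with T3 at 48 hours, and 1 rose and 2 fell at 96 hours. The one that rose was the receptor Thrb, by 0.82 and 0.95 (limma adjusted p = 0.0309 and 0.0287), and those that fell at 96 hours were Hdac3, a deacetylase, by 0.26 and Kdm3a, a histone demethylase, by 0.33. With the term for the replicate 1 rose and 1 fell at 48 hours and 2 rose and 3 fell at 96 hours. The median change of the list was -0.07 at 48 hours and -0.02 at 96 hours.

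Of the 13 START domain genes, 0 changed at 48 hours and 2 rose at 96 hours, Stard3, a sterol carrier of late endosomes, by 0.47 and Cert1, the ceramide transporter, by 0.39. The term for the replicate made these counts 1 risen at 48 hours and 5 risen and 2 fallen at 96 hours. Of the closest relatives of Stard13, Dlc1 differed by 0.82 and 1.10, which did not pass without the term (limma adjusted p = 0.199 and 0.186) and passed with it at both times (0.00405 and 9.00e-04). Stard8 differed by -0.03 and -0.17 and passed in neither fit.

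Of 17 genes of the Kctd family, 0 changed at 48 hours, and at 96 hours 0 rose and 3 fell, Kctd5 by 0.20, Kctd17 by 0.47 and Tnfaip1 by 0.51 (limma adjusted p between 0.0228 and 0.0460). With the term for the replicate 1 fell at 48 hours and 6 fell at 96 hours. Of 14 melanin and melanosome genes, 0 changed at 48 hours and 1 rose at 96 hours, Mitf, the melanocyte transcription factor, by 0.49 (adjusted p = 0.0395), while 2 rose at 48 hours with the term. Tyrosinase (Tyr), which acts before Dct in that pathway, stayed between 5.26 and 5.66 on the 24 arrays, and its relative Tyrp1 between 5.12 and 5.73. Other genes of the list read Pmel 9.11 to 10.95, Mitf 8.55 to 10.23 and Mlana 5.18 to 6.23. The T3 difference of Tyr was 0.09 at 48 hours and 0.17 at 96 hours, and neither passed. Of 15 genes with a fibrinogen-like domain, 0 changed at 48 hours, and at 96 hours 0 rose and 2 fell, Angptl4, an inhibitor of lipoprotein lipase, by 1.58 and Tnc, a matrix glycoprotein, by 1.57 (adjusted p = 0.0478 and 0.0162). With the term 2 of these rose and 1 fell at 48 hours, and 1 rose and 3 fell at 96 hours. The medians of these 3 lists lay between -0.08 and 0.07 at both times.

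The genes that lie next to the 5 on their chromosomes were taken as the nearest 5 with a probe set on each side, 50 in all, in the gene order of a reference rat annotation. At 48 hours 0 of the 50 differed between T3 and control (all probe sets, 0.792% higher and 0.254% lower). With the term for the replicate 5 rose and 2 fell (all probe sets, 4.57% and 5.51%). At 96 hours 6 rose and 5 fell (5.64% and 6.07% of all), or 9 and 9 with the term (10.3% and 14.3% of all). The median change of the 50 was 0.00 both times.

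Beside Hr, the next gene Reep4, which makes a protein of the endoplasmic reticulum, rose by 0.76 ± 0.13 (SE, n = 3 per group, limma adjusted p = 0.0036) at 96 hours. Lgi3, a secreted leucine-rich protein and the next after it, read 8.56, 8.93 and 9.02 in control and 10.77, 10.98 and 11.31 with T3. Its groups were far apart, with a rise of 2.19 ± 0.18 (adjusted p = 3.38e-05). With quetiapine alone Lgi3 read 10.38, 10.45 and 10.48, a rise of 1.60 over control (adjusted p = 4.94e-04), which left it between control and T3. On the other side of Hr, Xpo7 fell by 0.26.

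Beside Kctd14, with 1 unmeasured gene between them, lies Thrsp, which was also on the list of T3 responsive genes. At 96 hours Thrsp read 7.02, 8.62 and 9.47 in control, 10.39, 12.24 and 11.54 with T3, 8.54, 8.60 and 9.58 with quetiapine, and 11.03, 12.07 and 11.02 with the combination. Its replicates differed widely, with replicate 1 the lowest in control and T3, as in Kctd14. The rise with T3 was 3.02 ± 0.62 (SE, n = 3 per group, limma adjusted p = 0.0105), and at 48 hours it was 1.64, which did not pass (adjusted p = 0.514) and passed with the term for the replicate (2.16e-04). Beside Stard13, Rfc3, a loader of the replication clamp, fell by 1.07. Near Dct, Gpr180 rose by 0.98, Ndfip2 rose by 0.75 and Dzip1 fell by 0.78, and near Fgl2, Gnai1 rose by 0.52 and Dnajc2 fell by 0.36. Clns1a, near Kctd14, fell by 0.34.

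**Figure D5:**
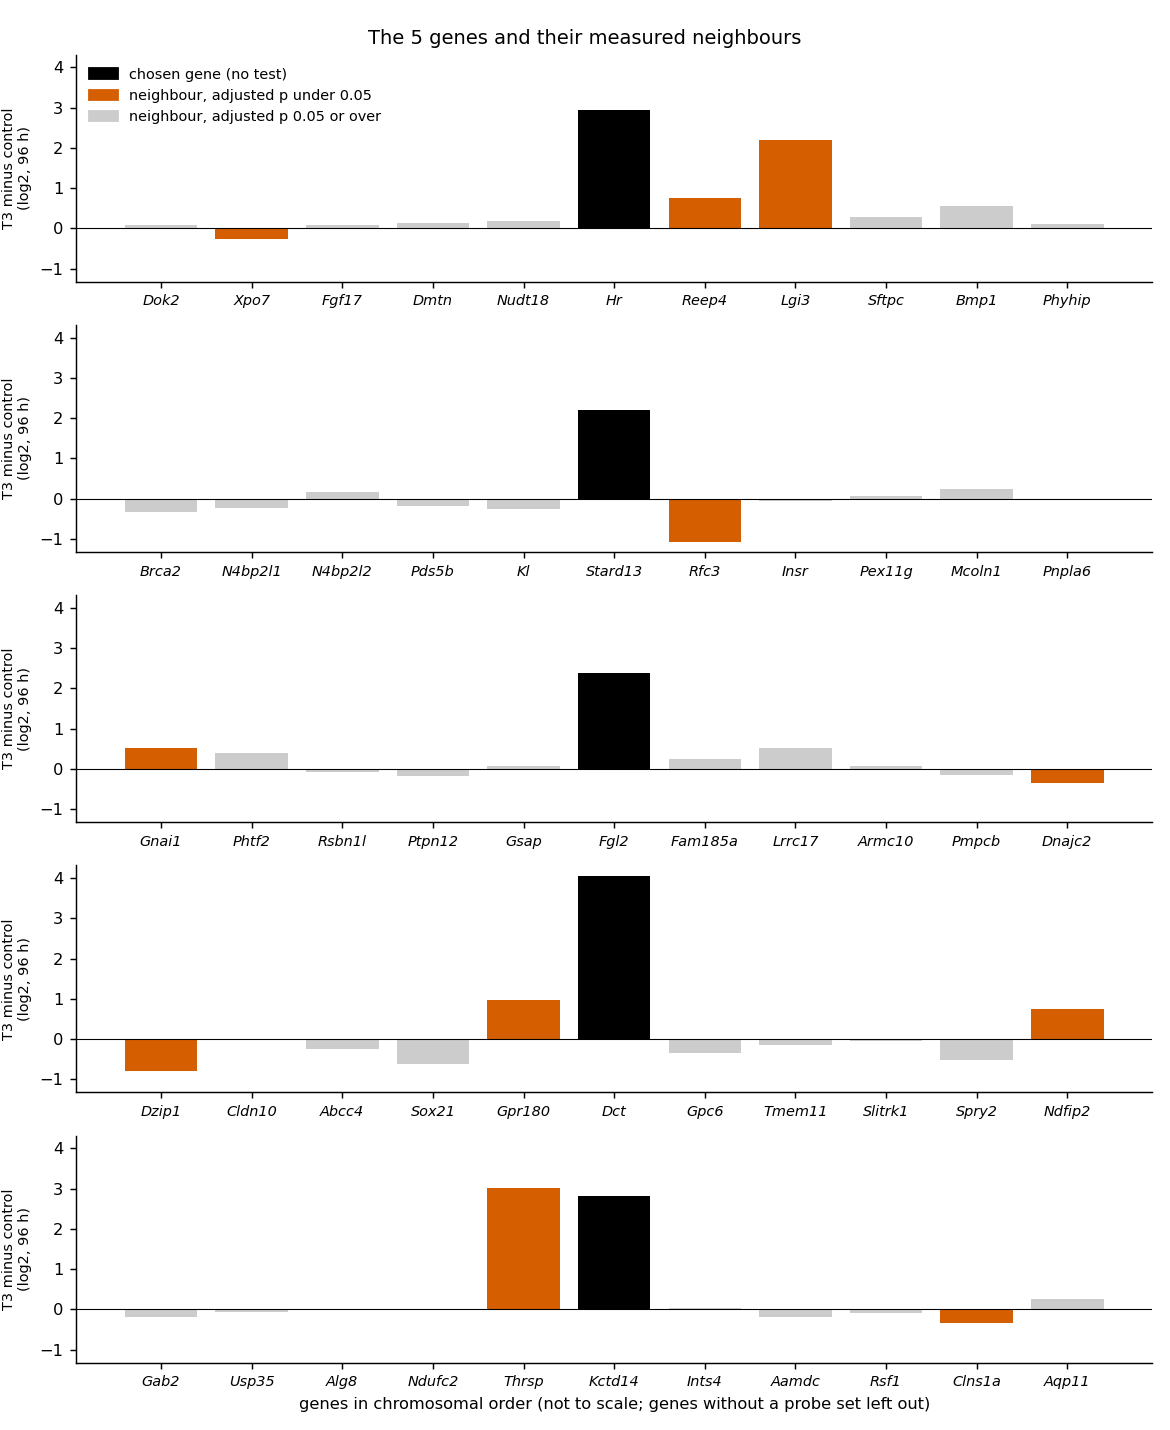
Log2 difference of T3 from control at 96 hours (y axis) for each of the 5 genes (black, chosen on this contrast and not tested) and its 5 nearest measured genes on each side (x axis, in chromosomal order, not to scale); orange bars passed an adjusted p of 0.05. Large rises beside a chosen gene are those of Lgi3 (2.19) near Hr and Thrsp (3.02) near Kctd14.

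Markers of the cell types in these cultures moved together with the 5 genes in part. Of 13 mature oligodendrocyte genes 0 changed with T3 at 48 hours and 11 rose at 96 hours, with a median change of 2.62, among them Mog by 3.85, Gpr37 by 3.22, Mobp by 3.03 and Ermn by 2.88, and with the term for the replicate 5 rose at 48 hours. The mean level of that list was 9.27 to 9.95 with T3 at 48 hours and 11.13 to 12.17 at 96 hours, beside 8.83 to 8.93 and 9.50 to 9.82 in control. In the combination at 96 hours it read 11.57, 12.45 and 12.63 in replicates 1, 2 and 3, the order in which Fgl2 lay (7.93, 8.97 and 9.98) and the reverse of that of Dct (11.62, 11.19 and 9.52). With T3 alone at 96 hours the list read 11.13, 11.81 and 12.17. Fgl2 did not keep that order in 1392894_at (9.22, 9.62 and 8.86), 1386637_at or 1383516_at. It did keep it in 1370623_at, over a narrow range (6.764, 6.787 and 6.795). Dct with T3 alone was again in the reverse order (12.46, 12.06 and 11.49). Quetiapine alone at 96 hours had this list at 10.92 to 11.73, while Fgl2 and Dct there overlapped control. An order of 3 arrays is a description only, and whether maturation had a part in the level of any of the 5 genes was not tested.

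At 96 hours the other cell type lists moved less with T3 than that of mature oligodendrocyte genes. At 48 hours the median change was 0.14 in that list, -0.20 in the OPC list and -0.22 in the astrocyte list. Of all probe sets, 0.792% were higher and 0.254% lower at 48 hours, and 5.64% and 6.07% at 96 hours. With the term for the replicate the shares were 4.57% and 5.51% at 48 hours and 10.3% and 14.3% at 96 hours. Of 10 OPC genes, 0 changed at 48 hours and 1 fell at 96 hours, Ptprz1 by 0.45, and of 10 astrocyte genes 0 changed at 48 hours, whereas at 96 hours Slc1a2 rose by 1.67 and Aldh1l1 fell by 1.46. Of 11 neuron genes 0 changed at 48 hours and 3 fell at 96 hours, Dcx by 0.99, Rbfox3 by 0.85 and Map2 by 0.60. Of 10 Schwann cell and neural crest genes, the receptor Erbb3 rose by 0.77 and 1.17 at the 2 times and Sox2 fell by 0.28 at 96 hours. With the term for the replicate the falls at 96 hours numbered 4 in the OPC list, 6 in the astrocyte list and 4 in the neuron list, and 2 rose and 2 fell in the Schwann list. At 48 hours 3 OPC, 2 astrocyte, 3 neuron and 1 Schwann gene fell with it and 1 OPC, 1 astrocyte and 1 Schwann gene rose. Of 12 vascular and fibroblast genes 0 changed at either time (1 fell at 96 hours with the term), the largest differences being Pdgfrb (-0.65) and Kdr (0.37). Of 18 microglial genes 0 changed at either time, with Fcer1g at -0.50 and Tyrobp at -0.32 at 96 hours. The mean microglial level was 6.51 in control replicate 2 at 48 hours and between 5.06 and 6.02 on the other 23 arrays. Without that control array, T3 exceeded control in Fgl2 1392894_at at 48 hours by 0.59, beside 0.47 with all arrays. In the other probe sets of Fgl2 the excess was smaller without that array, in 1370623_at 0.18 beside 0.26. The astrocyte list, which was 11.11 to 11.63 in control at 96 hours, was 10.18 to 11.12 with quetiapine and 10.07 to 10.65 with the combination, and its part in the values of the 5 genes was not tested.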

How the data were processed

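RNA from rat OPC cultures was measured on Affymetrix arrays. The authors deposited log2 expression values for 31099 probe sets, obtained from the array signals by RMA, which subtracts background, equalises the distributions of the arrays by quantiles and reduces the probes of a set to 1 value. Neither its version nor a genome build is given in the sources used here, and nothing further was done to the values before testing. After 57 control probe sets were left out, 31042 remained, 20826 with 1 symbol in the dated annotation of the platform, 436 with several and 9780 with none. Depth does not apply to arrays, and the precision depends on their number and on the spread between replicates.

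Tests used limma 3.58.1 (R 4.3.3) on group means, with empirical Bayes moderation, no term for the replicate and p adjusted by Benjamini-Hochberg over all 31042 probe sets. Fits used the 12 arrays of a time, and all 24 for differences between times. A probe set passed at an adjusted p under 0.05. The fit at 96 hours was tested on simulated arrays, each drawn independently, without the likeness of same-numbered arrays found in the data. Of 100 changes of 1 log2 unit 85% were recovered, of 100 of 2 units 97%, and 5.70% of calls were false. The simulation cannot show how the fit does where replicates share deviations.

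The 5 genes and the 14 lists (237 symbols, 203 measured) were chosen with earlier results of these data known, so no count supports the choice. The result of 1 list is not reported here. A gene with more than 1 probe set was represented in lists by that of highest mean. Named besides the 5 were, for each, the 5 genes of highest Pearson r over the arrays, neighbours past the test, and up to 4 genes of each list past the test (2 with the largest difference where none passed). The symbols of all 5 were found once in a reference gene table of Rattus rattus, the species the labels give, which supplied gene order only. The methods of the study name Sprague Dawley rats, so the order may differ. Sequences were not used here.

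Per the design text, every condition was sampled in each of 3 biological replicates, so replicate numbers pair the samples. Deviations from group means correlated between same-numbered arrays at 0.430 to 0.777 at 48 hours and 0.309 to 0.690 at 96 hours (18 pairs each), and between other arrays at -0.681 to -0.005 and -0.583 to 0.243 (36 pairs each). The alternatives were the replicate number as a block, a fold change over 1.5 as well, arrays centred on their medians, probe sets under the 40th percentile of mean signal left out, 1 fit over all arrays, a prior variance that follows mean expression, and each array left out in turn.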

Additional observations from a re-analysis of the deposited data

Results flagged for a closer look

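The difference of the combination from control in Fgl2 was larger at 96 than at 48 hours by 1.94 in 1392894_at, by 1.48 in 1386637_at and by 3.01 in 1383516_at, each past the test of the change between the times. In 1383516_at the difference from quetiapine also grew, by 2.95. These probe sets measure 1 gene and share the combination arrays, so they are not separate results. Without combination replicate 1 at 48 hours 1 of the 3 calls against control was left, and with combination replicate 1 at 96 hours left out all 4 probe sets passed against control and against quetiapine.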

How the results depend on the processing

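With the replicate block, the count of member probe sets rose to 6 for the combination over control at 48 hours and to 5 over quetiapine, 1 fell below T3 at each time and 1 below control with quetiapine at 48 hours. In the changes between times the block gave 2 higher and 1 lower for the combination against quetiapine and 1 higher for quetiapine against control. It changed no other count of members by more than 1.5 times. A fold limit of 1.5 left 1 of the 2 rises with quetiapine at 96 hours. Leaving out dim probe sets took out 2 of the Fgl2 probe sets and so left 2 rises with time in the combination and 0 in its growth against quetiapine.

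Leaving out 1 array gave 5 to 8 members higher in the combination than in quetiapine at 96 hours (5 without quetiapine or combination replicate 2), 1 to 4 for the growth against control, 0 to 4 higher and 0 to 1 lower for that against quetiapine, and 0 to 1 higher for that of quetiapine against control. The call for the growth in 1386637_at was lost without any 1 of the control arrays, combination replicates 1 or 2 at 48 hours or combination replicate 2 at 96 hours. That in 1392894_at was lost without control replicate 2 or combination replicate 1 at 48 hours, or control replicate 1 or combination replicate 2 or 3 at 96 hours. The growth of 1383516_at against quetiapine was lost without any 1 of 14 arrays. Differences near 0 that changed sign without 1 array were those of Fgl2 1392894_at between the combination and control at 48 hours (-0.039 to 0.34) and between the combination and T3 at 96 hours (-0.78 to 0.24), Kctd14 between the combination and T3 (-0.82 to 0.19) and between quetiapine and control (-0.42 to 0.021) at 48 hours, Stard13 between quetiapine and control at 48 hours (-0.0058 to 0.48) and between times in the combination (-0.080 to 0.16), Hr between the combination and T3 at 96 hours (-0.0060 to 0.10), and Dct between quetiapine and control at 96 hours (-1.19 to 0.081). The cause was not tested.

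Counts over all probe sets moved more. With T3 against control at 48 hours, 246 were higher and 79 lower, with the block 1418 and 1711, without 1 array 101 to 260 and 8 to 76, and with the fold limit 34 were lower. At 96 hours 1751 were higher and 1885 lower, with the block 3206 and 4444, with the fold limit 1041 and 771, and without 1 array 1012 to 1980 and 667 to 2151. For the combination over control, 813 were higher at 48 hours, 2989 with the block, 405 with the fold limit and 356 to 762 without 1 array, and 4211 at 96 hours became 2145 with the fold limit. Over quetiapine the counts were 223 and 1125, with the block 1159 and 2654, without 1 array 110 to 235 and 460 to 1579, and with the fold limit 630 at 96 hours. Between the combination and T3, 6 and 593 differed, 324 and 3731 with the block, 16 and 1298 in 1 fit over all arrays, 0 to 15 and 71 to 1103 without 1 array, and 352 at 96 hours with the fold limit. For quetiapine against control, 36 differed at 48 hours, 1112 with the block, 59 in 1 fit over all arrays and 2 to 62 without 1 array, and at 96 hours 1132 were higher, 2478 with the block, 664 with the fold limit and 698 to 1269 without 1 array. Between the times 2998 rose in the combination, 1456 with the fold limit. The growth against control was called for 1288, 2504 with the block and 742 to 1915 without 1 array, and that against quetiapine for 19, 103 with the block, 4 without dim probe sets and 7 to 180 without 1 array.

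Of the neighbours, 5 rose and 2 fell at 48 hours with the block, and at 96 hours 9 fell with the block, 3 with centred arrays, 2 with the fold limit and 1 to 5 without 1 array. Of the T3 responsive genes 2 fell with the block at each time, 1 fell at 96 hours in 1 fit over all arrays, 5 to 8 rose at 48 hours without 1 array, and 0 to 2 fell at 96 hours. The other counts of members, with each alternative, stayed within 1.5 times of those given. With 3 arrays a group, differences in Dct and Kctd14 of the size of the spread between replicates could not be called without the block.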
